A study of Mus musculus with 42 samples.

Results

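Granzymes and perforin are the killing proteins that cytotoxic T cells and NK cells store in granules and release onto a target cell. The 9 genes described here, Gzma, Gzmb, Gzmc, Gzmd, Gzme, Gzmf, Gzmg, Gzmk and Prf1, were picked by name from the 26811 genes of a count table. All 9 passed the filter on low counts, which kept 16932 genes. The names were put forward with earlier results of these data in view, in which granzyme and perforin mRNA was low in tumors of mice given aIL2RB. Every difference between a group with aIL2RB and a group without it is therefore a description here, with no test.

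The data are bulk poly(A) RNA-seq profiles of 42 tumors of MC38, a mouse colon carcinoma line, grown from cells placed under the skin of female CC75xB6 mice aged 8 to 12 weeks. These mice are the F1 offspring of the Collaborative Cross strain CC075/UncJ and C57BL/6J, and all groups share this genotype and this tumor line. The groups were isotype control (n = 5), aPD1 (n = 6), aPD1 + aGMCSF (n = 9), aPD1 + aIL2RB (n = 11) and aPD1 + aGMCSF + aIL2RB (n = 11), and each tumor is labelled as a biological replicate. The mice of all groups but isotype control received 200 μg of aPD1, an antibody to the checkpoint receptor PD-1, once tumors measured 75 to 110 mm3, and tumors were taken 48 h later. Before that, 100 μg of aGMCSF, 200 μg of aIL2RB or the matching isotype antibodies had been injected every 3 days from engraftment on. aGMCSF blocks GM-CSF, a growth factor of myeloid cells, and aIL2RB binds the receptor chain that IL-2 and IL-15 share. The antibodies were given to the whole animal, so the data do not separate effects on the tumor's own leukocytes from effects elsewhere. No group received a blocking antibody without aPD1. What a blocking antibody does alone thus cannot be told apart from what it does together with aPD1.

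Perforin forms pores in the membrane of the target cell, and granzymes are serine proteases that enter through them. Granzyme B cleaves after aspartate and activates caspases, whereas granzymes A and K cut after basic residues. Granzymes C to G are rodent paralogs next to Gzmb whose roles are less well known. IL-2 and IL-15 are known to induce perforin and granzyme B in killer lymphocytes, and the protease cathepsin C trims granzyme precursors into active enzymes.

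Total counts ranged from 7155486 to 24101674 per tumor, where the lowest belonged to aPD1 + aGMCSF + aIL2RB replicate 4 and the next lowest was 15109227. Levels are given as CPM, counts scaled to a common library size after TMM normalization, and as CPM per kb of exons where genes are compared with each other. The tumors parted along their replicate numbers into a first set of 22 (isotype control 1 and 2, aPD1 1 to 3, aPD1 + aGMCSF 1 to 5 and both groups with aIL2RB 1 to 6) and a second set of 20, a division that the labels do not name and that was known from earlier results. With treatment in the model, 25.1% of genes differed between the sets in edgeR's quasi-likelihood test at an adjusted p under 0.05, and 0 of the 9 granzyme and perforin genes did. The sets came from earlier results of these same data. Their p-values, here and below, are therefore not independent of the division and are no separate evidence for it. Gzmg alone had an unadjusted p under 0.05 in edgeR (p = 0.0233, adjusted p = 0.0782) and was 0.97 ± 0.41 (SE) log2 higher in the second set, whereas DESeq2 put it at -0.24. DESeq2 called 1 of the 9, Gzmd, at -1.34 log2 (DESeq2 adjusted p = 0.0468), where it called 26.2% of all genes. edgeR put Gzmd at -0.09. All 10 T cell markers were lower in the second set, with a median log2 difference of -0.96, and the keratin gene Krt8 was higher by 4.66 log2. This model takes the same set difference in every group, although groups went opposite ways. From the first to the second set, mean Gzmb went from 27.2 to 64.9 CPM in aPD1 and from 9.18 to 0.423 CPM in aPD1 + aGMCSF + aIL2RB. The median summed count of Cd3d, Cd3e and Cd3g went from 446 to 756 and from 122 to 14 in these groups. Results are therefore also given within the sets.

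Gzmb, Gzmc, Gzmd, Gzme, Gzmf and Gzmg lie within 144.6 kb on the minus strand of chromosome 14 (chr14:56117626-56262260, GRCm38), with Gzme at one end and Gzmb at the other. Gzma (chr13:113093825-113100981) and Gzmk (chr13:113171608-113225908) are neighbours on chromosome 13, 70.6 kb apart, and Prf1 is on chromosome 10 (chr10:61297833-61304680). The transcripts of Gzmd and Gzme were 90.4% identical over their best alignment, while Gzmb was at most 51.1% identical to any other member. Fractional counts of Gzmd and of Gzme occurred in 4 tumors each (more than 1e-06 from a whole number), and the sum of both genes had no fraction in any tumor. Reads had thus been divided between these paralogs, and their separate values are uncertain to that extent.

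The 250 bases before the start site are shown for the 5 paralogs that, as given below, varied together from tumor to tumor, and for their neighbour Gzmb, which did so less closely. They are from RefSeq on GRCm38.p6, written 5′ to 3′ on the gene's strand, and all 9 genes matched that table. Capitals mark every match, on either strand, to 5 motifs: RUNX (TGTGGT), T-box (GGTGTGA), AP-1 (TGANTCA), STAT (TTCNNNGAA) and CRE (TGACGTCA).
Gzmc, chr14:56234658-56234907, strand -: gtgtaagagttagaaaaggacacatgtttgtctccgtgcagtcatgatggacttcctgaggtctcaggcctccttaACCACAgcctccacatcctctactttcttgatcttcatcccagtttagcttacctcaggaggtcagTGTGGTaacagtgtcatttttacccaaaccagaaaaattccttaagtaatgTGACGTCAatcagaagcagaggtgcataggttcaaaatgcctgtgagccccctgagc
Gzmd, chr14:56132594-56132843, strand -: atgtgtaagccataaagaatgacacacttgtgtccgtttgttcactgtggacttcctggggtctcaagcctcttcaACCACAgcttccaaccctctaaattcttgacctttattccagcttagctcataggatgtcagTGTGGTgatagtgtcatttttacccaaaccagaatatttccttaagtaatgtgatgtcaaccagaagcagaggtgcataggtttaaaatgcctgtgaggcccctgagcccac
Gzme, chr14:56120626-56120875, strand -: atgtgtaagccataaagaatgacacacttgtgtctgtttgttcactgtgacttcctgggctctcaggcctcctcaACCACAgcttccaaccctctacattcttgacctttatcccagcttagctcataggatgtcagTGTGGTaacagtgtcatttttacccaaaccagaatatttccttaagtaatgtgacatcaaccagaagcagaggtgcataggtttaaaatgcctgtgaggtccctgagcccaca
Gzmf, chr14:56211408-56211657, strand -: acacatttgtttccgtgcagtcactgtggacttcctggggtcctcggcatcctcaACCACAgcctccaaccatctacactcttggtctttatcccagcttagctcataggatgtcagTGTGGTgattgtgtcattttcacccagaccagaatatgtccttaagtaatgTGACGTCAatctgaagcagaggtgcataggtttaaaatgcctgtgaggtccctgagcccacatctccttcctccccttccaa
Gzmg, chr14:56159580-56159829, strand -: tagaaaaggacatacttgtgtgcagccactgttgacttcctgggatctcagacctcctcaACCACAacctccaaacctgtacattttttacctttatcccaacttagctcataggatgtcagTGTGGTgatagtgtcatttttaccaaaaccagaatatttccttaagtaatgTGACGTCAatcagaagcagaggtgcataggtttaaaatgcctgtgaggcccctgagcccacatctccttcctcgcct
Gzmb, chr14:56262335-56262584, strand -: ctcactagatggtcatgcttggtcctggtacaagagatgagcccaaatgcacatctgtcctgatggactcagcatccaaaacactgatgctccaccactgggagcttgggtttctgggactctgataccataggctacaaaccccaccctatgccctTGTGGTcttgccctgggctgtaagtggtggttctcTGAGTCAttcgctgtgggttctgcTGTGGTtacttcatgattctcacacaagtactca
The Gzmd and Gzme stretches were 94.8% identical, and Gzmb was at most 52.2% identical to any of the other 5. RUNX letters were present before 8 of the 9 genes, all but Gzmk, against 14% of 32851 promoters. In each of Gzmb to Gzmg they occurred at 2 places. CRE letters were present before Gzmc, Gzmf and Gzmg, against 1.55% of promoters. Directly after the same flanking bases Gzmd and Gzme differ from these letters at 1 base each, C4T in Gzmd and G5A in Gzme, with positions counted from the first base of the motif. AP-1 letters occurred before Gzmb alone (6.75% of promoters), T-box letters before Gzmk alone (3.33%) and STAT letters before none of the 9 (7.02%). The motifs do not overlap in these stretches. The matches are letters in a window, no binding was measured, and the paralogs share their sequence by descent.

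In isotype control tumors most granzyme counts came from the paralogs of the cluster. On the CPM per kb scale the mean levels were 33.9 ± 24 (SD, n = 5) for Gzmf, 33.4 ± 16.9 for Gzmc, 29.8 ± 21.2 for Gzmg, 26.3 ± 16.5 for Gzmd, 12.6 ± 3.62 for Gzmb, 11.7 ± 8.51 for Gzme, 4.92 ± 1.49 for Gzma, 3.48 ± 1.5 for Prf1 and 0.495 ± 0.275 for Gzmk. The first 4 lie within each other's SD and change places between the sets, where Gzmc led the first at 21.3 and Gzmf the second at 46.8, and so do Gzmb and Gzme. Gzmc to Gzmg together took a median of 82.7% of the counts of the 8 granzymes in this group, with a range of 67.3% to 88.6%. Gzmm, a granzyme outside the 9, stayed at a mean of 0.393 ± 0.177 CPM (SD, n = 5) in isotype control and 0.215 to 0.412 CPM in the other groups. Gzmn was too low to test.

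Over all tumors, the order of the group means was the same for the whole family. Mean CPM was highest in aPD1, then in isotype control, then in aPD1 + aGMCSF, and lowest in the groups with aIL2RB, for all 9 genes. Within the sets it did not hold throughout. In the first set Gzmk and Gzme were at 0.515 and 1.92 CPM in aPD1 + aGMCSF + aIL2RB against 0.452 and 1.82 in aPD1 + aGMCSF, and Prf1 was at 6.52 CPM in aPD1 + aGMCSF against 6.09 in isotype control. The first-set medians of Gzmk in those groups went the other way, at 0.21 against 0.614 CPM. In the second set Gzmc was at 37 CPM in isotype control against 36 in aPD1. From aPD1 to isotype control and on to aPD1 + aGMCSF, neighbouring groups overlapped for every gene. Gzma and Gzmg were lower without overlap in aPD1 + aIL2RB than in aPD1 + aGMCSF (0.154% of genes were), and the other 7 genes overlapped there. The plot of levels by tumor shows the 9 genes side by side.

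Perforin and granzyme B, the pair best known for killing by cytotoxic T cells, had the same pattern across groups. Gzmb was at 13.9, 14.2, 25.8, 21.2 and 15.5 CPM in isotype control replicates 1 to 5. In aPD1 replicates 1 to 6 it was at 40.8, 23.3, 17.6, 87.0, 50.8 and 57.0 CPM. The aPD1 range reached above that of isotype control and overlapped it in aPD1 replicates 2 and 3, both of the first set. In aPD1 + aGMCSF the lowest, median and highest Gzmb values were 4.93, 13.1 and 17.2 CPM, below every aPD1 tumor. In aPD1 + aIL2RB they were 0.745, 1.86 and 12.4 CPM, and in aPD1 + aGMCSF + aIL2RB 0, 1.73 and 24.1 CPM. The highest tumor of the last group thus exceeded 4 of the 5 isotype control tumors, while 1 tumor of it had no Gzmb count.

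Prf1 was at 5.57, 6.62, 13.8, 12.6 and 6.45 CPM in isotype control and at 17.1, 9.54, 10.4, 34.6, 14.7 and 18.7 CPM in aPD1. The aPD1 value of 34.6 in replicate 4 stands apart from the rest. In aPD1 + aGMCSF its lowest, median and highest values were 3.14, 6.47 and 8.44 CPM, again below every aPD1 tumor. They were 0.135, 1.27 and 6.26 CPM in aPD1 + aIL2RB and 0.089, 1.22 and 15.8 CPM in aPD1 + aGMCSF + aIL2RB. Prf1 was detected in every tumor.

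Granzymes A and K, the tryptases of chromosome 13, differed in level. Gzma was at 3.02, 4.06, 6.8, 5.95 and 4.9 CPM in isotype control, at 7.82, 4.44, 3.02, 12.9, 8.8 and 8.57 CPM in aPD1, and between 1.7 and 4.26 CPM in aPD1 + aGMCSF with a median of 2.95. It was at 0 in 9 of 11 tumors of each group with aIL2RB, and its highest value there was 0.569 CPM. Gzmk was low throughout, at 0.687 ± 0.382 CPM (SD, n = 5) in isotype control, 1.65 ± 0.748 (n = 6) in aPD1 and 0.339 ± 0.242 (n = 9) in aPD1 + aGMCSF. Its highest value with aIL2RB was 2.04 CPM, in aPD1 + aGMCSF + aIL2RB replicate 1, within the aPD1 range.

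The cluster paralogs are represented here by Gzmf and Gzmg. Gzmf was at 17.6, 9.13, 45.8, 62.2 and 21.2 CPM in isotype control and at 78.4, 15.5, 13.4, 120.5, 50.6 and 11.1 CPM in aPD1. In aPD1 + aGMCSF it ranged from 0.616 to 19.2 CPM with a median of 6.78. Gzmg was at 15.1, 6.34, 45.3, 49.8 and 19.2 CPM in isotype control and at 45.1, 8.76, 8.54, 94.8, 32.7 and 2.95 CPM in aPD1. aPD1 replicate 6 was the lowest of its group for Gzmg and Gzmf although its Gzmb level was the second highest of that group. Gzmg ranged from 1.02 to 13.8 CPM in aPD1 + aGMCSF, reached 0.254 CPM at most in aPD1 + aIL2RB, where 7 of 11 tumors were at 0, and 1.05 CPM at most in aPD1 + aGMCSF + aIL2RB, where 5 of 11 were at 0. Gzmc, Gzmd and Gzme had means of 29.8 ± 15.1, 25.4 ± 15.9 and 10.7 ± 7.79 CPM (SD, n = 5) in isotype control and of 11.1 ± 5.68, 5.99 ± 4.1 and 2.85 ± 1.8 CPM (n = 9) in aPD1 + aGMCSF.

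The first comparison asked what aPD1 alone did. None of the 9 genes differed between aPD1 and isotype control by edgeR's quasi-likelihood test at an adjusted p under 0.05, while 8.71% of genes did. All 9 values were above 0, from 0.24 log2 for Gzmc to 1.35 log2 for Gzmb, with a median of 0.62 against -0.0023 over all genes. All 10 T cell markers and all 8 NK cell markers were above 0 as well, with medians of 0.98 and 1.08 log2 and 0 called, and Ptprc, the pan-leukocyte gene, was higher by 0.97 log2 (edgeR adjusted p = 0.013). Their part in the granzyme and perforin values was not tested. The Gzmb difference was 1.35 ± 0.70 log2 (SE; 95% interval -0.03 to 2.73), with an unadjusted p of 0.0618 and an adjusted p of 0.233 in edgeR, and DESeq2 called 0 of the 9 as well, and 10.2% of all genes. Gzmb did pass when only these groups were fitted (edgeR adjusted p = 0.0282, 7.96% of genes called) and in the second set (edgeR adjusted p = 0.0172, 13% of genes called). No granzyme or perforin gene had an unadjusted p under 0.05 in the fit of all tumors, where 4074 of 16932 genes did. Without aPD1 replicate 4, the values of Gzmc, Gzmd and Gzmg were -0.03, -0.07 and -0.47 log2.

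The second comparison asked what blocking GM-CSF changed in mice given aPD1. 8 of the 9 genes were lower in aPD1 + aGMCSF than in aPD1 by edgeR, where 13.5% of all genes differed in either direction. Gzmf fell by 2.58 log2 (SE 0.61, 5.96-fold, adjusted p = 0.00349 in edgeR), Gzmd fell by 2.53 (SE 0.60, adjusted p = 0.00353) and Gzmg fell by 2.40 (SE 0.52, adjusted p = 0.00176). Gzme fell by 2.44, Gzmk by 2.26, Gzmb by 1.89, Gzmc by 1.65 and Gzma by 1.36 log2, with edgeR adjusted p-values of 0.0119, 0.0322, 0.0273, 0.0184 and 0.0188. Prf1 was -1.45 ± 0.61 log2 with an adjusted p of 0.106 in edgeR and was not called, but all 9 genes passed when only these groups were fitted, where 16.5% of genes did (Prf1 at -1.44 log2, edgeR adjusted p = 0.000437). Gzmb and Prf1 were the genes of the family whose tumors did not overlap between the groups, which held for 2.2% of all genes in this direction. The plot of tested changes sets the comparisons side by side.

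**Figure D1:**
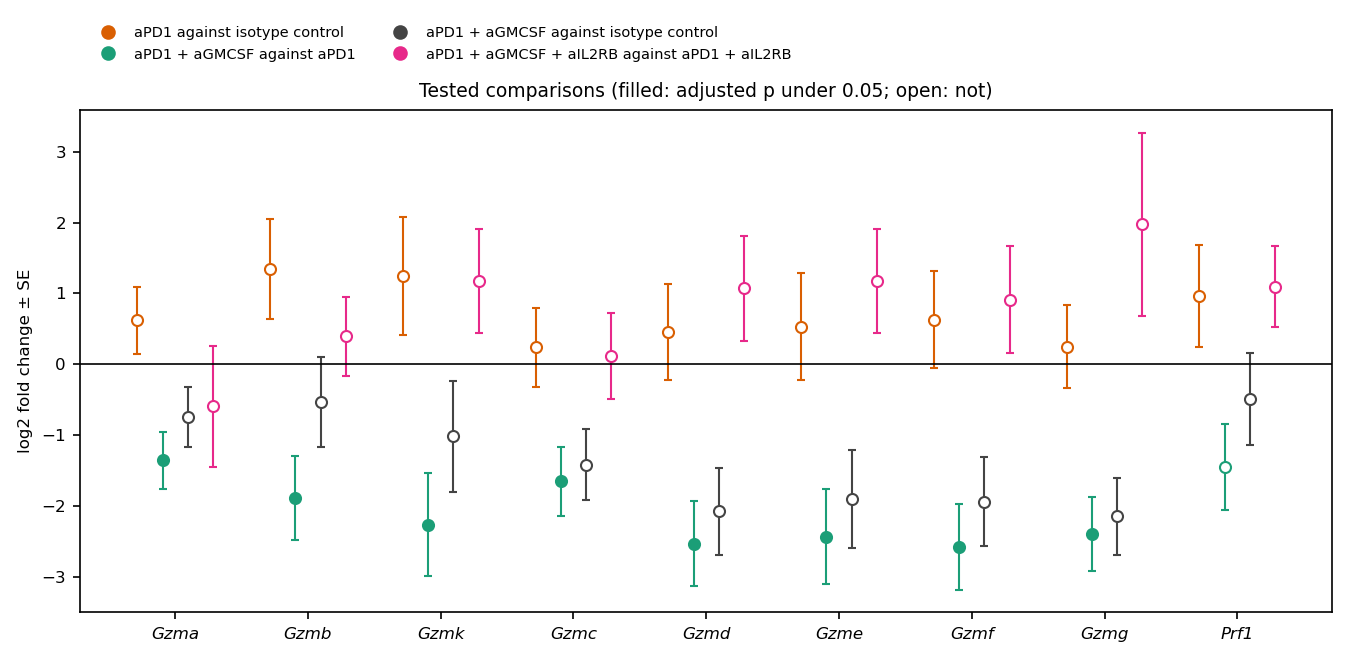
Log2 fold change with its standard error for each of the 9 genes in the 4 tested comparisons of groups, filled where the edgeR adjusted p was under 0.05. The 8 filled points belong to aPD1 + aGMCSF against aPD1 and lie between -2.58 and -1.36.

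The calls varied with the tumors and the tool. Without aPD1 replicate 4, 3 genes remained called (Gzmd, Gzmf and Gzmg), where 7.1% of genes were, and the median over the 9 was -1.68 log2. DESeq2 called 4 (Gzmd, Gzmf, Gzmg and Gzmk), where it called 14.1% of genes. Within the first set, 0 were called, where 0.155% of genes were, and the smallest edgeR adjusted p was 0.068, with a median of -1.99 log2 over the 9 genes against -2.26 in all tumors and -2.29 with DESeq2. Within the second set, 8 were called (all but Gzmc), where 16.4% of genes were. The sign was the same for all 9 genes in each of these fits. All 10 T cell markers had values below 0, and 3 were called lower (Lck, Cd8b1 and Trac) in the fit of all tumors, where 13.5% of all genes were called. Their summed level was 89.5 to 163.3 CPM in aPD1 and 32.4 to 91.3 CPM in aPD1 + aGMCSF. Of 8 NK cell markers 1, Klrk1, was lower, which is near the share over all genes. Their summed level was 45.2 to 91.7 CPM against 20.6 to 47.8 CPM. Of 3 tested neutrophil markers 2 were lower, with a median of -1.93 log2, and of 3 fibroblast markers 2 were, with a median of -0.55 log2. The part of these cells in the result was not tested. In bulk tumors fewer killer cells and less mRNA per cell cannot be told apart.

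The third comparison set aPD1 + aGMCSF against isotype control, so it shares its tumors with the comparisons above. edgeR called 0 of the 9 genes and 0.0% of all genes, with 938 genes and 5 of the 9 at an unadjusted p under 0.05. DESeq2 also called 0 of the 9. All 9 values were below 0, with a median of -1.42 log2 against 0.0056 over all genes. The 5 were the cluster paralogs: Gzmg at -2.15 ± 0.54 (SE), Gzmd at -2.08 ± 0.62, Gzmf at -1.95 ± 0.63, Gzme at -1.91 ± 0.70 and Gzmc at -1.42 ± 0.51 log2, all with edgeR adjusted p-values of 0.539 to 0.862. Gzmb was at -0.54 ± 0.63 log2 and Prf1 at -0.49 ± 0.65, and Prf1 turned to 0.10 log2 in the first set.

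With aIL2RB, the means of all 9 genes over all tumors were low in both groups that received it, as the choice of genes would give. In the first set of aPD1 + aGMCSF + aIL2RB, however, mean Prf1 was at 6.2 CPM against 6.09 in isotype control (n = 2), and mean Gzmk at 0.515 against 0.485 CPM. The medians of these 6 tumors were lower, at 4.38 CPM for Prf1 and 0.21 CPM for Gzmk. Replicate 1 was the highest for both, at 15.8 and 2.04 CPM. Relative to aPD1, the log2 values in aPD1 + aIL2RB ran from -9.11 ± 0.78 (SE) for Gzmg to -3.47 ± 0.61 for Prf1, with Gzma at -6.83 ± 0.53, Gzmc at -5.34 ± 0.55 and Gzmb at -3.64 ± 0.59. The fitted values of Gzmg and Gzma rest on tumors near 0 counts and depend on the prior count of the fit. The median over the 9 was -5.34 log2, against 0.0036 over all genes, and all 9 were lower without overlap, which held for 2.99% of genes. Relative to isotype control the median was -5.10 log2 (0.011 over all genes), -3.51 in the first set and -6.25 in the second, and 7 were lower without overlap (0.532% of genes), the exceptions being Gzmk and Prf1. Relative to aPD1 + aGMCSF the median was -3.49 log2 (0.0031 over all genes), -2.1 in the first set and -4.75 in the second, with Gzmg at -6.71 ± 0.81, Gzma at -5.47 ± 0.51 and Gzmk at -1.40 ± 0.75 log2. The genes were chosen for low levels with aIL2RB, so nothing is read from these medians and shares.

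aPD1 + aGMCSF + aIL2RB was similarly low. Relative to aPD1, Gzma was at -7.42 ± 0.57 log2, Gzmg at -7.13 ± 0.67, Gzmb at -3.25 ± 0.59 and Prf1 at -2.38 ± 0.59. The median over the 9 was -4.96 log2 (0.011 over all genes), -3.67 in the first set and -9.87 in the second, and 5 were lower without overlap (0.827% of genes). Relative to isotype control it was -4.50 log2 (0.016 over all genes), -2.42 in the first set and -9.64 in the second. Relative to aPD1 + aGMCSF it was -2.42 log2 (0.0087 over all genes), -0.94 in the first set and -8.27 in the second, so the pooled medians lie between unlike sets. Gzmk was the closest to its level without aIL2RB, at -0.23 ± 0.70 log2 against aPD1 + aGMCSF. Of its 58 counts in aPD1 + aGMCSF + aIL2RB, however, 39 came from replicate 1. T cell markers summed to 4.74 to 41.4 CPM in aPD1 + aIL2RB and to 2.57 to 86.8 CPM in aPD1 + aGMCSF + aIL2RB, and NK cell markers to 4.94 to 17.7 and 2.46 to 47.6 CPM. Ncr1, the defining receptor of NK cells, was at 0 in all 11 tumors of the first group and in 10 of 11 of the second, against a mean of 1.34 CPM in isotype control. How far these cells account for the low levels was not tested.

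The fourth comparison asked what blocking GM-CSF added once IL2RB was blocked. edgeR called 0 of the 9 genes, where 0.00591% of genes were called, and 0 of the 9 had an unadjusted p under 0.05, as 1212 genes did. Gzma, Gzmd, Gzme, Gzmg and Gzmk did not pass the count filter when only these groups were fitted, so the test says little about them. DESeq2 also called 0. The values ran from -0.60 ± 0.86 log2 (SE) for Gzma to 1.98 ± 1.29 for Gzmg, and Prf1 was at 1.10 ± 0.57 log2 (95% interval -0.02 to 2.21) with an unadjusted p of 0.0613. Gzma and Gzmg had 14 and 12 counts in all in aPD1 + aIL2RB, and 8 and 46 in aPD1 + aGMCSF + aIL2RB. In the fit of only these groups the 4 genes kept, Gzmb, Gzmc, Gzmf and Prf1, ran from 0.14 to 1.1 log2, with 0 called. The sets went opposite ways. In the first set all 9 values were above 0, with a median of 1.5 log2, and in the second all 9 were below 0, with a median of -2.69 log2. Some of these signs rest on few counts. Gzma had 8 counts in aPD1 + aGMCSF + aIL2RB and 2 in aPD1 + aIL2RB in the first set, and 0 and 12 in the second. Gzmg had 0 and 4 in the second set. Gzmb was lower in the second set at an edgeR adjusted p of 0.0319, where 2.04% of genes were called.

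The interaction of set and group, which tests that difference itself, called 0 of the 9 genes in edgeR, where 1.94% of genes were called. All 9 interaction values were below 0, and Gzmb at -3.65 ± 1.03 log2 (SE) and Prf1 at -3.58 ± 1.02 were nearest, with edgeR adjusted p-values of 0.0522 and 0.0530. DESeq2 called 5 (Gzma, Gzmb, Gzmc, Gzme and Prf1) and 4.87% of all genes. Of these, Gzma and Gzme did not pass the count filter when only the groups with aIL2RB were fitted. In the second set Gzma had 12 counts in aPD1 + aIL2RB, all in replicate 9, and 0 in aPD1 + aGMCSF + aIL2RB. All 10 T cell markers and all 8 NK cell markers were below 0 in the same interaction, with medians of -1.95 and -2.28 log2. The summed Cd3d, Cd3e and Cd3g counts in aPD1 + aGMCSF + aIL2RB were 65 to 468 in the first set and 8 to 33 in the second, and their part in the set difference was not tested. The tumors behind it are plain in the values. Gzmb was at 24.1, 4.02, 3.92, 17.9, 3.38 and 1.73 CPM in aPD1 + aGMCSF + aIL2RB replicates 1 to 6 and at 0.539, 0, 0.223, 0.883 and 0.471 CPM in replicates 7 to 11. Every tumor of the first set lay above every tumor of the second. In aPD1 + aIL2RB the sets overlapped, at 0.745 to 12.4 and 1.14 to 7.59 CPM.

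In the 5 second-set tumors of aPD1 + aGMCSF + aIL2RB, Gzma, Gzme and Gzmg had no count at all. With 3 counts over the 5 tumors as the limit that a count of 0 allows (0.0303 CPM, counting error only), their levels were at least 333.5-fold, 658.9-fold and 1437-fold lower than the mean of the 3 aPD1 tumors of the second set. These tumors differed widely, with Gzmg at 94.8, 32.7 and 2.95 CPM and Gzme at 37.4, 19.9 and 2.53 CPM, so the bounds do not hold for each of them. Gzmb and Prf1 were detected there at 41 and 28 counts in all. Gzmc, Gzmd, Gzmf and Gzmk had 3 or 4 counts each.

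To set the genes against T cell mRNA in the same tumor, each count was divided by the summed counts of Cd3d, Cd3e and Cd3g, subunits of the T cell receptor complex, which ranged from 8 to 828 counts per tumor. In a permutation test of the log2 ratio over tumors, exact except between the groups of 11, 0 of the 9 genes passed in any of the 4 tested comparisons after adjustment over all genes. The share of genes that passed was 65.2% for aPD1 against isotype control, 82.0% for aPD1 + aGMCSF against aPD1 (0.13% in the lower direction) and 0.0% for each of the other comparisons. A gene that does not change also moves in this ratio when the denominator does. In aPD1 + aGMCSF against aPD1 the log2 ratio differed by -0.56 for Gzmb (exact p = 0.126) and -0.15 for Prf1 (exact p = 0.587). It differed by -1.33 for Gzmf (exact p = 0.132) and -1.35 for Gzmk (exact p = 0.0553, adjusted p = 0.0662). Divided by Ptprc, the pan-leukocyte gene, which was itself lower by 0.81 log2 here, 72.8% of genes passed, and 1.06% of genes passed in the lower direction. There 3 of the 36 tests passed, all in this comparison: Gzmk at -1.78, Gzmb at -0.99 and Prf1 at -0.58 log2, with permutation p-values adjusted over all genes of 0.0145, 0.00653 and 0.00546. Divided by Cd8a and Cd8b1, Gzmk passed (permutation test, adjusted p = 0.036), where 81.2% of genes passed and 0.171% were lower. The sign of many of the 36 ratio differences turned within a single set, among them Gzmd from -0.83 to 0.14 log2 in aPD1 against isotype control in the first set, and that of Prf1 and Gzma also when single tumors were left out.

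**Figure D2:**
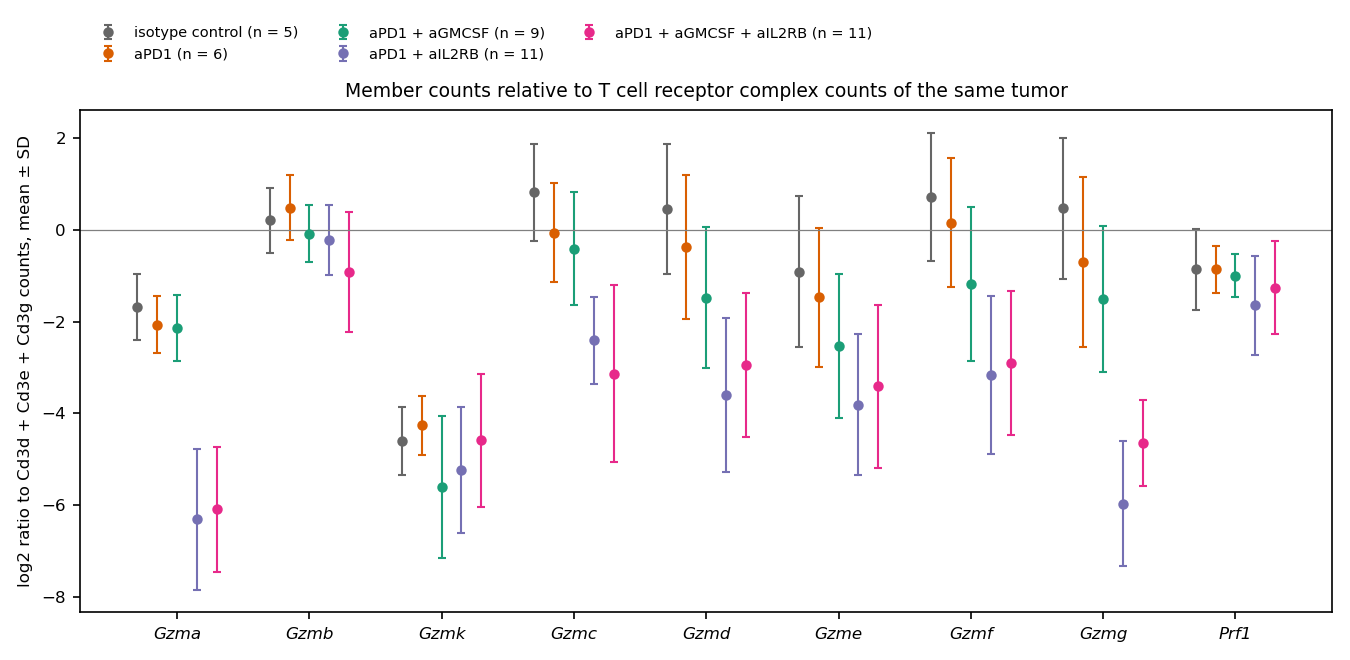
Log2 ratio of each gene's count to the summed Cd3d, Cd3e and Cd3g counts of the same tumor, as mean and SD over the tumors of each group. The group means of Gzmb run from -0.92 to 0.48 and those of Gzmk from -5.61 to -4.26, while Gzma and Gzmg, with many counts of 0 there, lie far below their own isotype control means in both groups with aIL2RB.

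Described in the same ratio, the family did not keep to one pattern with aIL2RB. The mean log2 ratio of Gzmb was 0.21 ± 0.71 (SD) in isotype control, 0.48 ± 0.71 in aPD1, -0.08 ± 0.62 in aPD1 + aGMCSF, -0.22 ± 0.77 in aPD1 + aIL2RB and -0.92 ± 1.31 in aPD1 + aGMCSF + aIL2RB, and the ranges of all groups overlapped. Prf1 went from -0.86 ± 0.89 in isotype control to -1.64 ± 1.08 in aPD1 + aIL2RB and -1.26 ± 1.01 in aPD1 + aGMCSF + aIL2RB. Gzmk was at -4.60 ± 0.75 in isotype control and at -5.23 ± 1.38 and -4.59 ± 1.45 in these groups. Gzma went from -1.67 ± 0.72 in isotype control to -6.31 ± 1.53 and -6.09 ± 1.36, and Gzmg from 0.47 ± 1.53 to -5.97 ± 1.36 and -4.64 ± 0.94. In tumors where a gene was at 0, the ratio is the pseudocount of 0.5 over the denominator. This holds for Gzmk too, which was at 0 in 5 of 11 aPD1 + aIL2RB tumors and 4 of 11 aPD1 + aGMCSF + aIL2RB tumors, so its means there depend in part on the Cd3 count.

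The make-up of granzyme mRNA differed likewise. The median share of Gzmc to Gzmg in the granzyme counts was 82.7% in isotype control, 72.8% in aPD1, 66.8% in aPD1 + aGMCSF, 36.4% in aPD1 + aIL2RB and 48.6% in aPD1 + aGMCSF + aIL2RB. In aPD1 + aIL2RB it was 50.6% in the first set and 25% in the second. The highest share in aPD1 + aIL2RB was 56.7%, below the lowest isotype control tumor. In aPD1 the exception was replicate 6 at 32%, the tumor with high Gzmb and low Gzmf. In aPD1 + aGMCSF + aIL2RB the median was 61.0% in the first set, against 59.7% in aPD1 + aGMCSF of that set and with a highest tumor of 79.9%, and 8.7% in the second, where at most 23 granzyme counts were present in a tumor and 1 tumor had none.

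**Figure D3:**
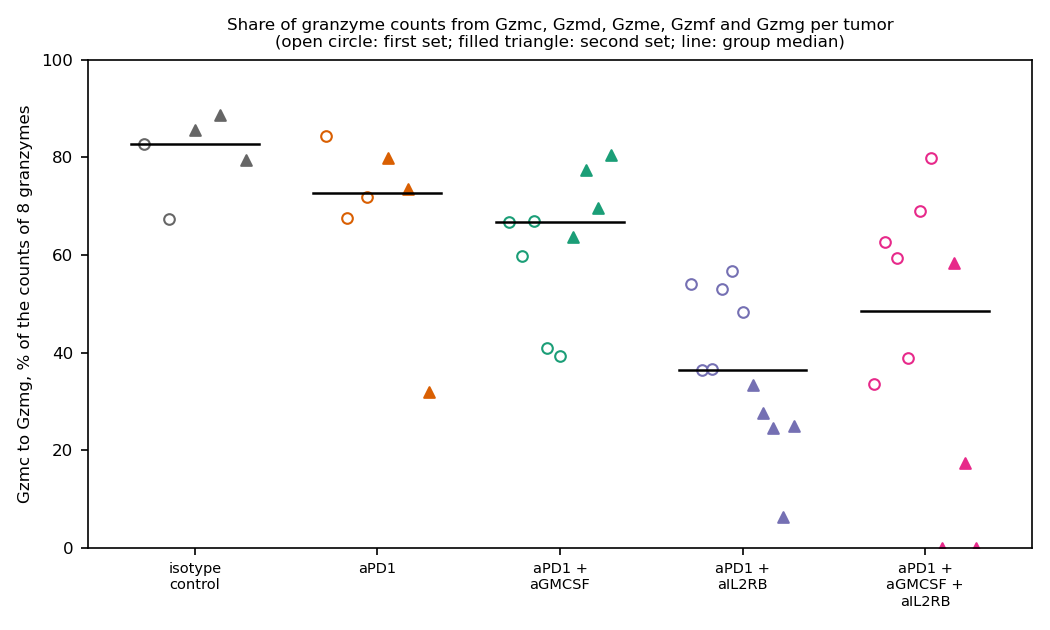
Share of the counts of 8 granzymes that came from Gzmc, Gzmd, Gzme, Gzmf and Gzmg, in percent, for each tumor with a granzyme count, with open circles for the first set, filled triangles for the second and a line at the group median. The median is 82.7% in isotype control and 36.4% in aPD1 + aIL2RB.

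Within the family, the 5 paralogs varied together. Over 42 tumors their pairwise Pearson correlations of log2 CPM were 0.90 to 0.98, and over the 20 tumors without aIL2RB, after each group's mean was subtracted, they were 0.91 to 0.98. Between these 5 and Gzma, Gzmb, Gzmk and Prf1 the correlations were 0.66 to 0.93 over 42 tumors and -0.18 to 0.71 over the 20 tumors less group means. These are descriptions over tumors that share treatments and depth, and reads divided between paralogs can add to the likeness of Gzmd and Gzme.

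**Figure D4:**
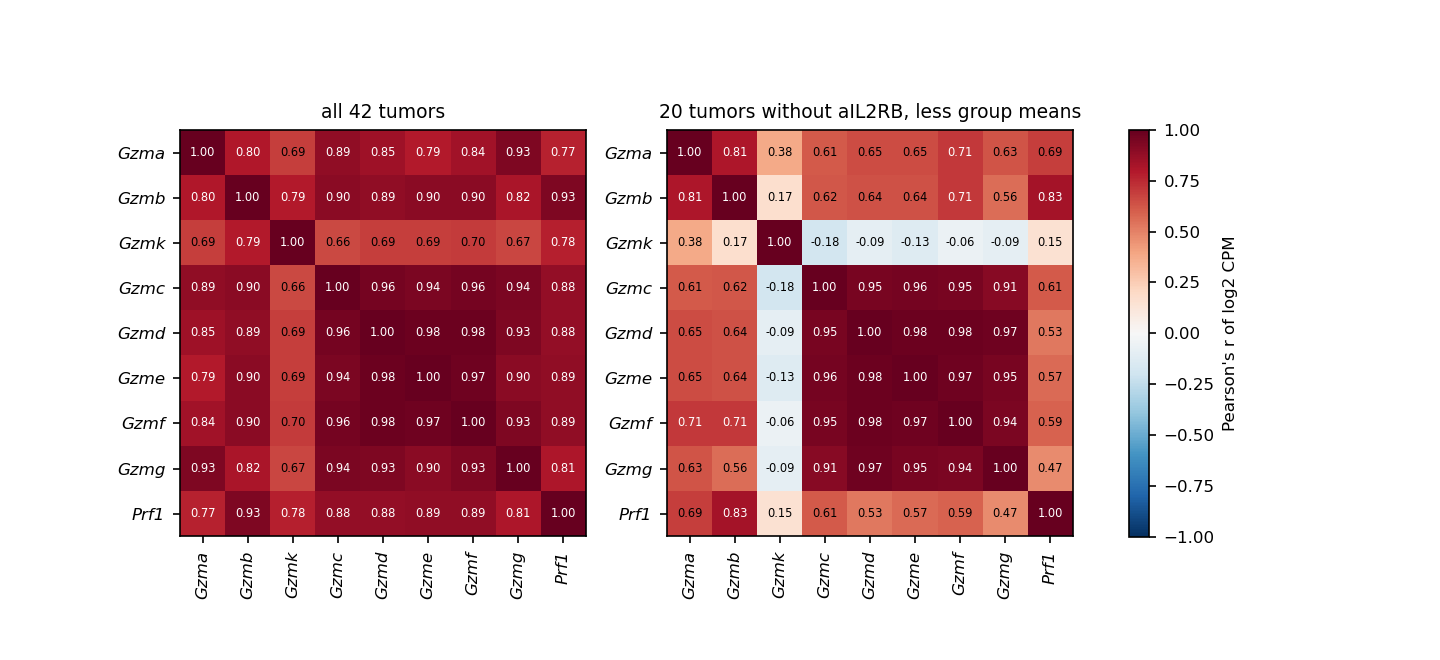
Pearson correlation of log2 CPM between the 9 genes, over 42 tumors and over the 20 tumors without aIL2RB after subtraction of group means. Gzmc to Gzmg form a block of 0.90 or more in both, while the correlations of the other genes with it range from -0.18 to 0.71 in the second.

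Of all genes outside the family, Nkg7, a granule membrane protein of killer cells, was most like Gzmb and most like Prf1 over the 42 tumors, with Pearson correlations of 0.957 and 0.947. Next to Gzmb came Tnfrsf9 (0.947), the costimulatory receptor 4-1BB, Klrk1 (0.946), the activating receptor NKG2D, Cd3g (0.942), Lck (0.941), Serpinb6b (0.937), Cd8b1 (0.936) and Cd8a (0.935). Next to Prf1 came Il2rb (0.941), the receptor chain that aIL2RB binds, Sh2d2a (0.935), Cd96 (0.923), Grap2 (0.922), Zap70, Ptpn22 and Cd3g (each 0.921). The likeness over 42 tumors includes the difference between groups with and without aIL2RB, for which the genes were chosen. It was lower without those groups, and lower again in the same 20 tumors less group means. Over the 20 tumors without aIL2RB, Nkg7 had correlations of 0.841 with Gzmb and 0.856 with Prf1, and Cd8a 0.636 with Gzmb. Over the same tumors less group means, the correlation of Lck with Gzmb was down to 0.051 and that of Il2rb with Prf1 to 0.196. Nkg7 had 0.551 with Gzmb and 0.639 with Prf1, and Serpinb6b, an inhibitor of the serpin family, had 0.742 with Gzmb.

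Genes that make, move or restrain the granules followed in part. For this list and those below, edgeR called 8.71% of all genes in aPD1 against isotype control and 13.5% in aPD1 + aGMCSF against aPD1. In aPD1 against isotype control, 2 of 8 genes of granule contents and activators were higher by edgeR (Ctsc by 0.99 log2, adjusted p = 0.00607, and Srgn by 0.80, adjusted p = 0.0494), with a list median of 0.80. In aPD1 + aGMCSF against aPD1, 4 of the 8 were lower (Ctsw, Ctsc, Srgn and Lamp1), with edgeR adjusted p-values of 0.0263, 0.00173, 0.0107 and 0.0015. Srgn encodes the proteoglycan that holds granzymes in the granule. Of 9 genes of granule transport and release, 3 were higher with aPD1 (Myo1g, Stxbp2 and Coro1a) and 7 were lower with aGMCSF added, among them Rab27a, which docks granules, by 0.89 log2 (edgeR adjusted p = 0.00961) and Unc13d, which primes them, by 0.84 (edgeR adjusted p = 0.00388). Most of these genes are also used by myeloid cells, and 4 of 5 macrophage markers were higher with aPD1 and lower with aGMCSF added.

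Among the death receptor ligands and the cytokine of killer cells, Tnfsf10, which encodes TRAIL, was higher with aPD1 by 1.53 log2 (edgeR adjusted p = 0.00322) and lower with aGMCSF added by 1.36 (edgeR adjusted p = 0.000784). Fasl and Ifng were not called in either comparison. Of the granzyme inhibitors, Serpinb9, which blocks granzyme B, was higher with aPD1 by 0.47 log2 (edgeR adjusted p = 0.00611) and lower with aGMCSF added by 0.42 (edgeR adjusted p = 0.00209), whereas Serpinb9b and Serpinb6b were not called.

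Of 8 transcription factors of killer cells, Zeb2 was higher with aPD1 by 0.42 log2 (edgeR adjusted p = 0.0272), where 8.71% of all genes were called. Id2 and Zeb2 were lower with aGMCSF added, where 13.5% of all genes were called. Tbx21, which encodes T-bet, was at 1.32 and -1.35 log2 and was not called in either (edgeR adjusted p = 0.172 and 0.072). Of 7 tested receptor chains and cytokines, Il12rb2 and Il2rg were higher with aPD1, by 1.93 and 0.95 log2. Il12rb2, Il2ra, Il2rg and Il15ra were lower with aGMCSF added, by 1.72, 1.34, 1.03 and 0.33 log2. Il2rb was at 1.12 and -1.13 log2, with edgeR adjusted p-values of 0.21 and 0.104. No gene of these lists was called in aPD1 + aGMCSF against isotype control or in aPD1 + aGMCSF + aIL2RB against aPD1 + aIL2RB by edgeR.

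The mast cell proteases of the same chromosome 14 cluster were low. Of 5 tested, Ctsg, the gene of cathepsin G, was the one called, with a log2 change of -2.98 in aPD1 + aGMCSF against aPD1 (edgeR adjusted p = 0.00914). It had at most 54 counts in a tumor and was at 0 in all 11 aPD1 + aIL2RB tumors and in 10 of 11 aPD1 + aGMCSF + aIL2RB tumors. Mcpt1, Mcpt2, Mcpt4 and Cma1, which are proteases of mast cells, were not called in either comparison.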

How the data were processed

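Bulk poly(A) libraries (KAPA mRNA HyperPrep) were sequenced as paired reads. The authors aligned them with bowtie 1.2.3 to the transcriptomes of the Collaborative Cross founders (g2gtools, GRCm38) and used gbrs to divide reads among genes. The deposited table holds the authors' expected counts, summed over founder haplotypes and not normalized. Reads shared by paralogs are divided, which bears on Gzmd and Gzme. Symbols came from GENCODE for 26629 of 26811 identifiers.

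Counts were rounded. All 42 tumors were fitted with edgeR 4.0.16 in R 4.3.3 (TMM, filterByExpr at min.count 10 and min.total.count 15, quasi-likelihood test, Benjamini-Hochberg over 16932 genes, threshold 0.05), and DESeq2 1.42.0 was an alternative. p-values measure the spread between tumors. SE and 95% intervals of log2 changes are from the edgeR fit, and they do not cover uncertainty in dividing reads. Intervals from counts of 0 cover counting error only. The depth is 7155486 to 24101674 counts per tumor, at which 3 counts over the 5 second-set tumors of aPD1 + aGMCSF + aIL2RB come to 0.0303 CPM. Correlations used log2 CPM with a prior count of 2.

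Ratios to Cd3d, Cd3e and Cd3g used a pseudocount of 0.5 and a two-sided permutation test over tumors, exact or with 100000 draws for groups of 11, in Python 3.11.15 with numpy 2.4.6. The ratio test had been planned with adjustment over the 9 genes and 4 comparisons and was adjusted over all genes instead. Both procedures were tested on simulated data. The permutation check missed part of the smaller shifts simulated at first, because few regroupings exist in small groups, and was passed with larger ones.

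The 9 genes, the lists of other genes and the sets of replicate numbers were chosen with earlier results of these data known. Every gene of the family is described, up to 3 genes are named per list, and 8 genes by likeness. Further list genes named beside a count were chosen after their values were seen. Alternatives were other normalizations and filters, only the groups compared, DESeq2, the replicate number as a block, the set as a term, each set alone, the 5 rRNA genes or the tumor of lowest total left out, Gzmd to Gzmg summed, other denominators or pseudocount, and tumors left out in turn. Leaving out tumors of the groups given blocking antibodies was added after the data were seen.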

Additional observations from a re-analysis of the deposited data

Results flagged for a closer look

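Prf1 in aPD1 replicate 4, at 34.6 CPM, lay far above the next aPD1 tumor at 18.7 CPM. The gap was 0.634 of the range of the 6 tumors, just past the critical value of 0.625. In 27 groups of 4 to 10 tumors tested this way, chance alone marks about 1 in 20, and this was the 1 marked. The same tumor had the highest level of its group for all of the 9 genes but Gzmc and Gzmk. Leaving it out lowered the number of the 9 called in aPD1 + aGMCSF against aPD1 from 8 to 3, and the share of all genes from 13.5% to 7.1%.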

How the results depend on the processing

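Of the 9 genes, the number called in aPD1 against isotype control was 0 and became 1 (Gzmb) with only the groups compared and 1 in the second set. In aPD1 + aGMCSF against aPD1 it was 8 (13.5% of all genes), and became 9 with only the groups compared (16.5%) and 0 in the first set (0.155%). It was 4 with DESeq2 (14.1%) and 5 of 6 with Gzmd to Gzmg summed as 1 gene (13.5%). With each tumor left out it was 3 to 8, where 7.1% to 17.5% of all genes were called, and 3 came without aPD1 replicate 4. With the replicate number as a block it was 4 (Gzma, Gzmd, Gzmf and Gzmg), where 12.2% of all genes were called. The numbers do not pair the tumors, since 16 of 67 same-numbered pairs correlated over 0.1 and 8 correlated best with their own number. In aPD1 + aGMCSF + aIL2RB against aPD1 + aIL2RB it was 0 (0.00591% of all genes), and 1 in the second set (2.04% of all genes). DESeq2 called 1 gene between the sets (26.2% of all genes) and 5 in the interaction (4.87%), and scaling by library size alone called 2 in the interaction (2.26%). For the comparisons with aIL2RB, which are not tested, the median log2 value over the genes moved by more than the spread between tumors in single sets. In aPD1 + aIL2RB it was -3.51 in the first and -6.25 in the second set against isotype control (-3.8 with the paralogs summed), -6.44 in the second against aPD1, and -2.1 and -4.75 against aPD1 + aGMCSF. In aPD1 + aGMCSF + aIL2RB it was -2.42 in the first and -9.64 in the second set against isotype control, -3.67 and -9.87 against aPD1, and -0.94 and -8.27 against aPD1 + aGMCSF, where -3.67 and -0.94 lay within the spread. Summing leaves fewer genes to count. The cause of the other shifts was not tested. Per T cell marker, 0 tests passed. With Cd8a and Cd8b1 1 passed and with Ptprc 3, all in aPD1 + aGMCSF against aPD1, where 81.2% and 72.8% of all genes passed. In the second set 1 passed, and nothing is read from it, since a gene that does not change can also pass in this ratio.

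These log2 values changed sign. In aPD1 against isotype control, Gzmc was -0.03 in the second set, and with tumors left out Gzmc ranged from -0.06 to 0.46, Gzmd from -0.07 to 0.74 and Gzmg from -0.47 to 0.59. In aPD1 + aGMCSF against isotype control, Prf1 was 0.15 with the replicate block and 0.1 in the first set. In aPD1 + aGMCSF + aIL2RB against aPD1 + aIL2RB, Gzma was 1.78 in the first set, and in the second set Gzmb was -2.69, Gzmc -3.31, Gzmd -1.34, Gzme -4.97, Gzmf -2.25, Gzmg -2.81, Gzmk -1.75 and Prf1 -1.95. Gzmc was -0.05 without the tumor of lowest total, and with tumors left out Gzma ranged from -1.3 to 1.48, Gzmb from -0.42 to 0.75, Gzmc from -0.08 to 0.55 and Gzmk from -0.23 to 1.56. In the first set Gzmk was 0.06 in aPD1 + aGMCSF + aIL2RB against isotype control, and Gzme was 0.04 and Gzmk 0.17 against aPD1 + aGMCSF. Between the sets Gzmf was -1.28 and Gzmg -0.24 with DESeq2.

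Ratios to Cd3 mRNA changed sign in the first set for aPD1 against isotype control (Gzmd 0.14, Gzme 0.52, Gzmf 0.38, Prf1 0.35), aPD1 + aGMCSF against aPD1 (Gzma 0.12, Prf1 0.04), aPD1 + aGMCSF against isotype control (Gzmb 0.03, Gzmk 0.02, Prf1 0.39) and aPD1 + aGMCSF + aIL2RB against aPD1 + aIL2RB (Gzma -0.07, Gzmb 0.02). In the second set they did so for aPD1 + aGMCSF against aPD1 (Gzmc 0.46, Gzmg 0.1) and aPD1 + aGMCSF + aIL2RB against aPD1 + aIL2RB (Gzme -1.06, Gzmf -0.32, Prf1 -0.07), and with Ptprc for the latter (Gzma -0.06, Gzmf -0.01). With tumors left out Prf1 ranged from -0.19 to 0.3 in aPD1 against isotype control, from -0.23 to 0.04 in aPD1 + aGMCSF against aPD1 and from -0.34 to 0.15 in aPD1 + aGMCSF against isotype control, and Gzma from -0.22 to 0.09 in aPD1 + aGMCSF against aPD1. The remaining values of single genes under alternatives kept their sign, and 2814 also kept their call or moved by less than the spread. A filter of at least 10 counts in every tumor left none of the 9 genes. Within a set, aPD1 against isotype control has too few tumors to reach an exact p under 0.05 in the ratio test. Low counts limit Gzmk throughout, and Gzma and Gzmg in the groups with aIL2RB.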
